A study of Mus musculus with 8 samples.

Results

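Immediate early genes are the genes that a growth factor switches on first, without new protein synthesis. A set of 10 of them was followed in cultured spermatogonial stem cells (SSCs): the zinc finger factors *Egr1*, *Egr2* and *Egr3*, the AP-1 subunits *Fos*, *Fosb*, *Jun* and *Junb*, the short immediate early response genes *Ier2* and *Ier3*, and the MAP kinase phosphatase *Dusp1*. They were chosen by name as genes that read out growth factor signalling, and all 10 were found among the 55421 genes of the count table. All 10 also passed the filter on low counts, which kept 20477 genes. The question was how their transcripts stood after 2 days in medium with or without retinoic acid (RA), in complete medium or in a mix of complete medium with a salt solution.

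Germ cells for the cultures were taken from mouse testes at 6 days of age, on a C57BL/6XDBA/2 F1 hybrid background for which no engineered allele is labelled. Veh stands for complete SSC medium, and RA for that medium with 100 nM RA. NR stands for nutrient restriction, a mix of 10% complete SSC medium and 90% Earle's Balanced Salt Solution (EBSS), and NRRA for the same mix with 100 nM RA. Each condition lasted 2 days and has 2 libraries, described by the study as independent biological replicates. All cultures shared a layer of irradiated mouse embryonic fibroblasts (MEFs) as feeder cells. N2 and the growth factors bFGF and GDNF are supplements of complete SSC medium, which made up 10% of the restricted mix. The study's recipe for that mix lists no growth factor added back. By that recipe, restriction of nutrients and dilution of growth factors cannot be told apart in any comparison between the media. The labels give both growth factors at 10 ng/ml for every library, those of the restricted mix included, and do not say whether they were added back to it, while the study's methods give another concentration for GDNF. RNA was taken from the whole culture, so a library holds transcripts of germ cells and feeder cells.

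A growth factor that binds its receptor tyrosine kinase starts the RAS, RAF, MEK and ERK cascade. ERK and its partner kinases phosphorylate transcription factors that already sit on DNA, among them the ternary complex factors with SRF at the CArG box and CREB at the cAMP response element (CRE), and the immediate early genes are transcribed within minutes. The burst is short, because the transcripts are unstable and their products include repressors and phosphatases. All libraries were taken after 2 days, so the first burst after the change of medium was not measured. Whether the transcripts report a running level or a later burst was not tested. In SSC cultures GDNF acts through the receptor pair GFRA1 and RET and bFGF through the FGF receptors, and both feed this cascade.

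Libraries held 19261333 to 30023585 counts, so that 1 CPM (the read count relative to the TMM-scaled library total) stood for 19.2 to 31.2 reads. Replicates differed by more than sampling noise, with a chi-square per gene between 1.58 in NR and 3.93 in Veh. Of 12 germ cell markers all were detected, and their summed level was 1190 to 1199 CPM with Veh, 1071 to 1126 with RA, 1445 to 1458 under NR and 1176 to 1188 under NRRA. All 14 fibroblast markers were also detected, at a summed level of 23253 to 23353 CPM with Veh, 18311 to 19677 with RA, 36031 to 37494 under NR and 28745 to 29565 under NRRA. Its members did not move as one: *Col1a1* was at 3742 CPM with Veh and 7869 under NR, while *Vim* was at 1788 and 967 and *S100a4* at 3.15 and 1.74. Of 6 Sertoli cell markers 4 passed the filter, with 204 to 988 counts for *Sox9* and 80 to 261 for *Wt1*, while *Fshr* had 0 to 1 and *Amh* 1 to 5. In bulk RNA such as this, fewer cells of a type and less RNA per cell cannot be told apart.

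Promoters were read to show which signal-responsive elements lie beside these genes. RefSeq windows of 300 bases (250 before to 50 after a start, build GRCm38.p6) were at hand for 7 of the 10 genes, 11 windows in all. *Egr1*, *Egr3* and *Ier2* had none, and elements outside the windows were not read. Both strands were searched for the CArG box, the CRE (TGACGTCA), its shorter core (TGACG, which lies inside every CRE), the AP-1 site (TGANTCA) and the EGR site (GCGNGGGCG). The CArG box was found in 4 of the 11 windows, all of *Egr2*, whose 5 windows partly overlap, against 1.63% of all 32851 windows. Overlapping *Egr2* windows share the same CArG box and the same shorter cores, so a count of windows is not a count of separate sites. The full CRE was found in 1, that of *Dusp1* (1.79% of all windows), and the shorter core in 7 (20.8%). The EGR site was found in 1, that of *Fosb* (5.55%), and the AP-1 site in 0 (7.81%). The stretches below are shown because *Egr2* and *Dusp1* are the genes of the set that RA moved furthest down and furthest up. Capitals mark the element. The *Egr2* lines give the CArG boxes at chr10:67537484-67537513 and chr10:67537787-67537816 (plus strand, each stretch 82 to 53 bases before a start). The *Dusp1* line gives the CRE at chr17:26508598-26508625 (minus strand, 153 to 126 bases before a start). These are RefSeq starts, and they lie inside the GENCODE spans of the genes given below.
Egr2 CArG box, first stretch: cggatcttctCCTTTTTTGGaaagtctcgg
Egr2 CArG box, second stretch: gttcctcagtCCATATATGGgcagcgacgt
Dusp1 CRE: gtagggcgggTGACGTCAccgcccggtc
Another pair of stretches shows genes of the set whose windows hold the shorter core or the EGR site: *Fos* at chr12:85473814-85473838 (plus strand) and *Fosb* at chr7:19310077-19310105 (minus strand).
Fos CRE core: ttccgcccagTGACGtaggaagtcc
Fosb EGR site: tgacgcaagcGCGGGGGCGggtcccggag
These matches describe letters only, and binding was not analysed here.

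The 10 genes summed to 785 and 722 CPM with Veh, 736 and 711 with RA, 384 and 401 under NR and 273 and 276 under NRRA. The sum thus overlapped between Veh and RA, while both restricted conditions lay below every library in complete medium and NRRA lay below NR. Divided by exon length, so that genes can be set beside each other, the Veh means were 102 CPM per kb for *Ier3*, 69.6 for *Junb*, 55.1 for *Jun*, 35.0 for *Egr1*, 31.2 for *Ier2*, 10.4 for *Egr2*, 7.55 for *Dusp1*, 5.53 for *Egr3*, 4.33 for *Fos* and 0.507 for *Fosb*. *Ier3* held 31.8% of the summed level per kb in Veh and 11.8% in NRRA, while *Dusp1* held 2.36% in Veh and 8.85% in NRRA. *Jun* and *Junb* together were the larger part in NRRA, with 23.8% and 30.8%.

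**Figure D1:**
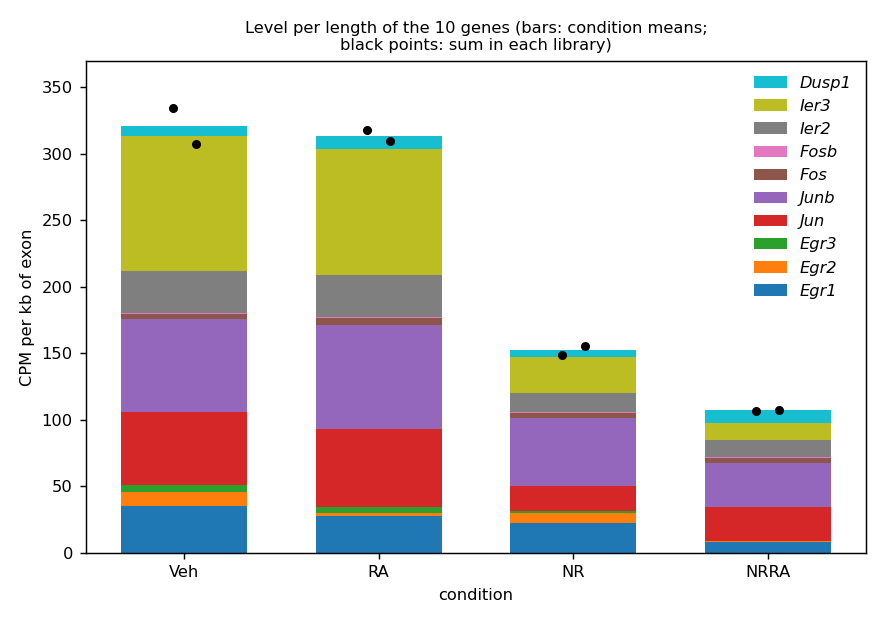
Level per length of the 10 genes in each condition, in CPM per kb of exon. Stacked bars give the mean of each gene over the 2 libraries of a condition and black points the sum in each library, which was 335 and 308 for Veh, 318 and 310 for RA, 149 and 156 for NR, and 107 for both NRRA libraries.

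In what follows a gene is said to have risen or fallen when its change was at least 2-fold and its adjusted p under 0.05 in edgeR's quasi-likelihood test, adjusted by Benjamini-Hochberg over the 20477 genes of the comparison. With RA alone, 1 of the 10 genes fell, against 2.75% of all genes, and 0 rose, against 4.74%. With NR alone, 4 fell, against 2.96%, and 0 rose, against 5.33%. With NRRA, 7 fell, against 6.02%, and 0 rose, against 9.91%. The median log2 change of the 10 genes was 0.07 for RA, -0.58 for NR and -1.20 for NRRA, beside -0.02, 0.01 and 0.03 for all genes. These 3 comparisons share the Veh libraries. Without the 2-fold threshold, 3 were higher (19.8% of all genes) and 3 lower (23.4%) with RA, 0 higher (21.7%) and 8 lower (22.2%) with NR, and 1 higher (30.1%) and 7 lower (28.7%) with NRRA. Of the 3 higher with RA, *Fos* and *Junb* were not past an adjusted p of 0.05 in DESeq2 (0.14 and 0.0509), nor in edgeR without Veh replicate 2 (0.353 and 0.113) or without RA replicate 1 (0.0851 and 0.217), and *Fos* also not without RA replicate 2 (0.153).

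**Figure D2:**
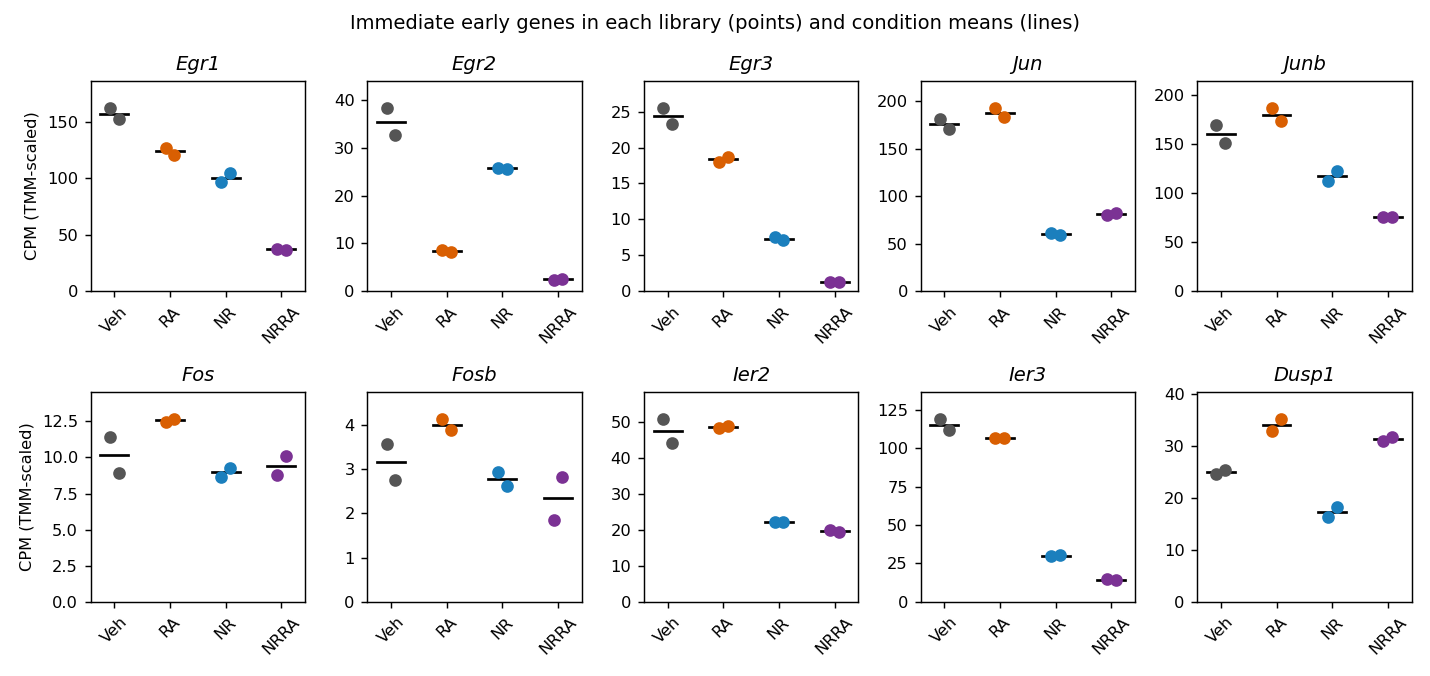
Each panel shows 1 gene, with the level in CPM on a linear axis from 0 and the 4 conditions side by side. Points are libraries and lines are the means of the 2 libraries. *Egr1*, *Egr2*, *Egr3*, *Junb*, *Ier2* and *Ier3* were lowest in NRRA with no overlap with any other condition, *Jun* and *Dusp1* were lowest in NR, and the Veh libraries of *Fos* and *Fosb* overlapped with those of NR and NRRA.

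The 2 largest falls of the set with NRRA were in the EGR family. EGR proteins are zinc finger transcription factors that bind GC-rich sites and carry a growth factor signal on to later genes. *Egr3* (chromosome 14, 70077203 to 70082614, plus strand, GRCm38) was at 25.5 and 23.3 CPM with Veh, 18.0 and 18.7 with RA, 7.52 and 7.10 under NR and 1.32 and 1.22 under NRRA. The 4 conditions did not overlap and kept this order, and the NRRA libraries rested on 37 and 38 reads. *Egr3* was lower with RA by a log2 change of -0.40 ± 0.08 (SE, edgeR adjusted p = 0.000315), short of 2-fold. It fell with NR by -1.74 ± 0.10 (adjusted p = 5.86e-14 in edgeR) and with NRRA by -4.26 ± 0.13 (adjusted p = 6.3e-20 in edgeR), a 19.2-fold lower level. Among the 20477 genes it ranked 52 from the most lowered in NRRA.

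*Egr2* (chromosome 10, 67535475 to 67542188, plus strand), the gene with the CArG boxes printed above, was at 38.2 and 32.6 CPM with Veh, 8.51 and 8.18 with RA, 25.8 and 25.6 under NR and 2.32 and 2.6 under NRRA. Here the order differed from that of *Egr3*: RA lay below NR, with no overlap. *Egr2* was the only gene of the set that fell with RA alone (log2 change -2.09 ± 0.09, edgeR adjusted p = 1.25e-15), and it was lower with NR by -0.46 ± 0.08, short of 2-fold (edgeR adjusted p = 2.64e-05). With NRRA it fell by -3.84 ± 0.11 (edgeR adjusted p = 2.82e-20), 14.3-fold, at rank 81 from the most lowered. It also fell between RA and NRRA, by -1.75 ± 0.14 (edgeR adjusted p = 9.5e-11).

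*Egr1* (chromosome 18, 34859823 to 34864984, plus strand), the most abundant of the 3 EGR genes per kb, was at 162 and 152 CPM with Veh, 127 and 121 with RA, 96.6 and 104 under NR and 37.4 and 36.2 under NRRA. Its libraries did not overlap between conditions. The single changes were below 2-fold, with log2 values of -0.35 ± 0.05 for RA (edgeR adjusted p = 4.04e-06) and -0.64 ± 0.05 for NR (edgeR adjusted p = 9.67e-11). With NRRA it fell by -2.09 ± 0.06 (edgeR adjusted p = 4.01e-21), 4.26-fold. *Egr1* and *Egr3* had a Pearson r of 0.986 over the log2 CPM of the 8 libraries, and *Egr1* and *Egr2* of 0.858. These 8 points are 4 conditions of 2 libraries each, so r follows the condition means and is given as a description.

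The AP-1 genes split into a JUN pair and a FOS pair. AP-1 is a dimer of a JUN protein with a FOS or another JUN protein, in which JUN activates and JUNB often tempers the activity of JUN. *Jun* (chromosome 4, 95049034 to 95052222, minus strand) was at 181 and 170 CPM with Veh, 192 and 184 with RA, 61.3 and 59.3 under NR and 80.5 and 81.9 under NRRA. It was thus lowest under restriction without RA, and RA and Veh lay next to each other (log2 change 0.10 ± 0.05, edgeR adjusted p = 0.101). *Jun* fell with NR by -1.54 ± 0.05 (edgeR adjusted p = 7.07e-19) and with NRRA by -1.11 ± 0.05 (edgeR adjusted p = 1.5e-16). Between NR and NRRA it was higher by 0.43 ± 0.05 (edgeR adjusted p = 1.43e-07), which is below 2-fold.

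*Junb* (chromosome 8, 84974484 to 84978718, minus strand) was at 169 and 151 CPM with Veh, 186 and 173 with RA, 113 and 122 under NR and 75.8 and 75.9 under NRRA. Unlike *Jun*, it was lower in NRRA than in NR. *Junb* was lower with NR by a log2 change of -0.45 ± 0.06, short of 2-fold (edgeR adjusted p = 2.55e-07), and fell with NRRA by -1.08 ± 0.06 (edgeR adjusted p = 6.92e-15). That fall was just past 2-fold, and without Veh replicate 1 it was -0.99. Of the exon bases of *Jun*, 7.28% overlap *Junos* and of those of *Junb* 7.52% overlap *Prdx2*, on the opposite strand. The use of strand in the counting is not given in the sources used here, so reads there could belong to either gene.

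The FOS pair was low per kb, and neither gene passed the 2-fold threshold in any comparison with all libraries. *Fos* (chromosome 12, 85473890 to 85477273, plus strand), the partner of JUN in the classic AP-1 dimer, was at 11.4 and 8.91 CPM with Veh, 12.5 and 12.7 with RA, 8.67 and 9.26 under NR and 8.75 and 10.1 under NRRA. Veh, NR and NRRA overlapped, and RA lay above all other libraries. Its log2 change was 0.30 ± 0.12 with RA (edgeR adjusted p = 0.0369), -0.18 with NR (95% interval -0.43 to 0.07) and -0.11 with NRRA (95% interval -0.35 to 0.13). The change with RA had an adjusted p of 0.14 in DESeq2, and in edgeR it was 0.15 without Veh replicate 2 (adjusted p = 0.353) and 0.52 without Veh replicate 1. The intervals for NR and NRRA leave room for smaller changes, but a 2-fold change lies outside them. *Fosb* (chromosome 7, 19302696 to 19310051, minus strand), a close relative of *Fos*, had 52 to 112 reads in a library, or 3.57 and 2.76 CPM with Veh, 4.13 and 3.88 with RA, 2.94 and 2.62 under NR and 1.86 and 2.83 under NRRA. Its RA libraries lay above those of Veh and the others overlapped with their neighbours, and no pair of neighbours in its order of means (RA, Veh, NR, NRRA) had an edgeR adjusted p under 0.05. Its log2 change with NRRA had a 95% interval of -0.86 to 0.01. That change was -0.77 without NRRA replicate 2 and -0.17 without NRRA replicate 1. From RA to NRRA *Fosb* was lower by -0.75 ± 0.19 (edgeR adjusted p = 0.00253), short of 2-fold. That value rested on single libraries: it was -1.10 without NRRA replicate 2, past 2-fold, and -0.50 without NRRA replicate 1 (edgeR adjusted p = 0.0753).

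**Figure D3:**
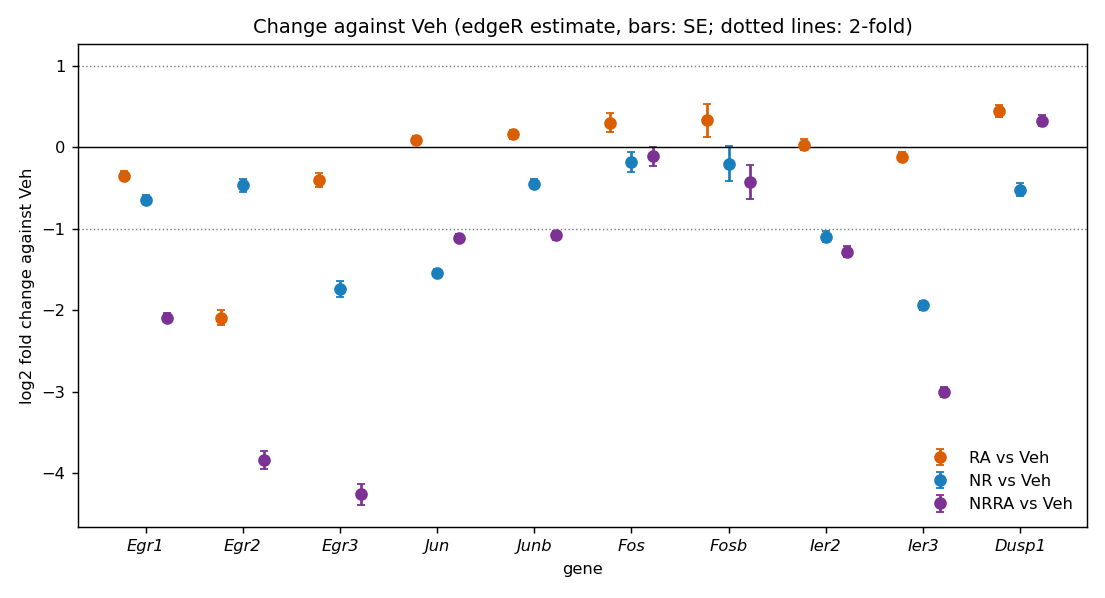
Log2 fold change of each gene against Veh for RA, NR and NRRA, from edgeR, with bars of 1 SE and dotted lines at 2-fold. *Egr3*, *Egr2* and *Ier3* lie lowest in NRRA, at -4.26, -3.84 and -3.01, while *Fos*, *Fosb* and *Dusp1* stay within the dotted lines in all 3 comparisons.

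*Ier3* and *Ier2* were lower in both restricted conditions. *Ier3*, which codes for a small protein tied to ERK activity and cell survival, lies on chromosome 17 (35821684 to 35822923, plus strand) and was at 119 and 112 CPM with Veh, 106 and 107 with RA, 29.8 and 30.4 under NR and 14.5 and 14.2 under NRRA. All NR and NRRA libraries were far below those in complete medium, and Veh and RA did not differ past the threshold (log2 change -0.11 ± 0.05, edgeR adjusted p = 0.0732). *Ier3* fell with NR by -1.94 ± 0.06 (edgeR adjusted p = 7.2e-20), 3.83-fold, and with NRRA by -3.01 ± 0.06 (edgeR adjusted p = 1.79e-23), 8.04-fold. It had the smallest adjusted p of the set in the last comparison.

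*Ier2*, a nuclear protein induced with the other genes of the set, lies on chromosome 8 (84661331 to 84662852, minus strand) and was at 50.9 and 44.2 CPM with Veh, 48.5 and 49.0 with RA, 22.2 and 22.3 under NR and 19.9 and 19.4 under NRRA. Veh and RA overlapped, and the restricted conditions lay near each other at a lower level, NRRA below NR with no overlap. It fell with NR by -1.10 ± 0.07 (edgeR adjusted p = 1.58e-12) and with NRRA by -1.28 ± 0.07 (edgeR adjusted p = 2.23e-14). The NR value was near 2-fold and came to -0.97 without Veh replicate 1. Between NR and NRRA the log2 change of *Ier2* was -0.18, with a 95% interval of -0.34 to -0.02 and an edgeR adjusted p of 0.057. That adjusted p depended on the processing: in edgeR it was 0.0365 with DESeq2 size factors and 0.0261 with only these 2 groups fitted.

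*Dusp1* was the only gene of the set that was higher with NRRA than with Veh at an adjusted p under 0.05. Its product removes phosphate from p38, JNK and ERK and so ends the signal that induced it. The gene (chromosome 17, 26505590 to 26562128, minus strand) was at 24.7 and 25.3 CPM with Veh, 32.9 and 35.2 with RA, 16.4 and 18.3 under NR and 31.0 and 31.8 under NRRA. Both conditions with RA lay above both without it. The log2 change was 0.45 ± 0.07 with RA (edgeR adjusted p = 1.5e-05), -0.52 ± 0.08 with NR (edgeR adjusted p = 7.3e-06) and 0.33 ± 0.07 with NRRA (edgeR adjusted p = 0.000329), all below 2-fold. From NR to NRRA it was higher by 0.85 ± 0.07 (edgeR adjusted p = 4.58e-10), 1.80-fold, and RA and NRRA did not differ past the threshold (edgeR adjusted p = 0.155).

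The effect of the medium was also read in the presence of RA. From RA to NRRA 7 of the 10 genes fell, against 3.68% of all genes, and 0 rose, against 4.61%. They were *Egr1*, *Egr2*, *Egr3*, *Jun*, *Junb*, *Ier2* and *Ier3*. This comparison shares the NRRA libraries with that of NRRA and Veh. Without the 2-fold threshold, 9 were lower (19.4%) and 0 higher (20.9%). Without NRRA replicate 1, *Fos* and *Fosb* were no longer among them (edgeR adjusted p = 0.0733 and 0.0753). *Egr3* fell by -3.85 ± 0.13 (edgeR adjusted p = 1.42e-18) and *Ier3* by -2.89 ± 0.06 (edgeR adjusted p = 4.81e-23). The effect of RA within restricted medium was read from NR to NRRA, where 4 genes fell, against 4.14%, and 0 rose, against 4.56%. Without the threshold, 5 were lower (22.1%) and 2 higher (21.3%). Those 4 were *Egr2* at -3.38 ± 0.12 (edgeR adjusted p = 2.45e-18), *Egr3* at -2.52 ± 0.16 (edgeR adjusted p = 9.3e-13), *Egr1* at -1.45 ± 0.06 (edgeR adjusted p = 4.01e-17) and *Ier3* at -1.07 ± 0.07 (edgeR adjusted p = 1.76e-12).

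Whether RA acted differently in the 2 media was tested by the interaction, the log2 change from NR to NRRA minus that from Veh to RA. It passed an adjusted p of 0.05 in 7 of the 10 genes, against 13% of all genes, with 5 negative (6.58%) and 2 positive (6.37%). With a 2-fold threshold added it passed in 3, against 2.24%. The most negative was *Egr3* at -2.11 ± 0.19 (edgeR adjusted p = 5.53e-09): the single changes with RA and NR add to -2.15, and the change with NRRA was -4.26. For *Egr2* the interaction was -1.29 ± 0.17 (edgeR adjusted p = 2.96e-06), with a sum of -2.55 beside -3.84. *Egr1* followed at -1.11 ± 0.08 (edgeR adjusted p = 6.09e-11), with a sum of -0.99 beside -2.09. *Ier3* and *Junb* were also negative, at -0.96 ± 0.09 (edgeR adjusted p = 9.43e-09) and -0.79 ± 0.08 (edgeR adjusted p = 3.97e-08).

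The 2 positive interactions were those of *Jun*, at 0.34 ± 0.07 (edgeR adjusted p = 0.00147), and *Dusp1*, at 0.40 ± 0.10 (edgeR adjusted p = 0.0107). For *Jun* the single changes add to -1.45 and NRRA gave -1.11. The interaction of *Dusp1* depended on the tool and on single libraries: its adjusted p was 0.0563 in DESeq2, and in edgeR 0.0501 without RA replicate 1, 0.163 without NR replicate 1 and 0.0545 without NRRA replicate 2. *Fos*, *Fosb* and *Ier2* did not pass, with 95% intervals of -0.57 to 0.11, -1.15 to 0.04 and -0.43 to -0.01. Without Veh replicate 1 the interaction of *Ier2* was -0.36 and passed (edgeR adjusted p = 0.00752).

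**Figure D4:**
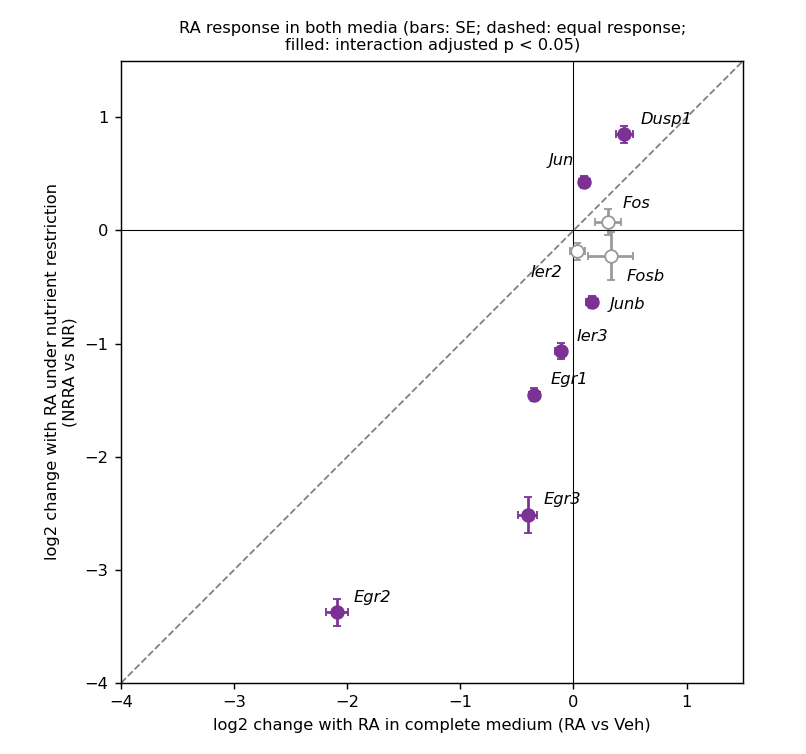
Log2 change with RA in complete medium (x axis) against that in restricted medium (y axis) for each gene, with bars of 1 SE and a dashed line where both are equal. Filled points passed the interaction test: *Egr3*, *Egr2*, *Egr1*, *Ier3* and *Junb* lie below the line and *Jun* and *Dusp1* above it.

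Other genes of the response were read from lists drawn up by role. Of 18 other immediate early transcription factors, 1 fell with RA (2.75% of all genes), 4 with NR (2.96%) and 7 with NRRA (6.02%), and 0 rose (4.74%, 5.33% and 9.91%). Their median log2 change with NRRA was -0.72, beside 0.03 for all genes. *Fosl1*, a FOS relative that is itself an AP-1 target, went from 84.0 ± 5.6 CPM (SD, n = 2) in Veh to 81.9 ± 1.5 in RA, 17.6 ± 0.27 in NR and 17.7 ± 1.6 in NRRA. It fell with NR by -2.26 ± 0.07 (edgeR adjusted p = 2.46e-19), and its log2 change from Veh to RA was -0.04 ± 0.06 (edgeR adjusted p = 0.64). *Egr4*, another EGR gene, was at 107 ± 19 CPM (SD, n = 2) with Veh, 47.5 ± 1.8 with RA, 116 ± 9.5 under NR and 17.1 ± 0.36 under NRRA. Unlike in *Fosl1*, RA lay below NR, while the means of Veh and NR differed by less than the SD of Veh. *Egr4* fell with RA (-1.17 ± 0.08, edgeR adjusted p = 7.5e-12) and NRRA (-2.65 ± 0.09, edgeR adjusted p = 6.75e-19). *Maff*, *Bhlhe40* and *Klf2* fell with NR and with NRRA, at -1.89, -1.80 and -1.25 in the latter. The nuclear receptors *Nr4a1* and *Nr4a2* fell with NRRA, at -1.0 and -1.33. *Nr4a1* lay at the 2-fold threshold, with means of 38.9 CPM with Veh and 19.5 under NRRA, so the count of 7 rests partly on it. *Nr4a2* was low, at 3.60 ± 1.10 CPM (SD, n = 2) with Veh and 1.41 ± 0.28 under NRRA. *Nr4a3*, at 0.55 to 1.27 CPM, rose from NR to NRRA by 1.19.

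Of 19 immediate early genes that are not transcription factors, 0 rose and 1 fell with RA, 2 rose and 4 fell with NR, and 2 rose and 6 fell with NRRA, with a median of -0.28 in the last. Of all genes, 4.74% rose and 2.75% fell with RA, 5.33% and 2.96% with NR, and 9.91% and 6.02% with NRRA, so the genes that rose with NRRA and fell with RA are near the share of all genes. *Hbegf*, a ligand of the EGF receptor, fell with NRRA by -2.26 ± 0.06 (edgeR adjusted p = 1.73e-20), and so did *Plk3* (-1.65), *Sgk1* (-1.64), *Phlda1* (-1.37), *Rhob* (-1.27) and *Trib1* (-1.25). *Sgk1*, a kinase, was the one that fell with RA (-1.23). The genes that rose with NR and NRRA were *Gadd45b*, a stress response gene, at 1.61 and 1.73, and *Ccn2*, a matricellular growth factor known as a target of SRF and YAP, at 1.11 and 1.17.

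Inhibitors of ERK signalling are in turn induced by it and are a common readout of the cascade. Of 11 ERK feedback and ETS genes, 8 fell with NRRA, against 6.02% of all genes, with a median of -1.63, 4 fell with NR (2.96%), 1 fell with RA (2.75%) and 0 rose in any of the 3. *Spry4*, an inhibitor of receptor tyrosine kinase signalling, was at 132 CPM with Veh, 61.5 with RA, 49.3 under NR and 12.3 under NRRA, a log2 change of -3.43 ± 0.06 (edgeR adjusted p = 2.65e-24). The ETS factors *Etv5*, *Etv1* and *Etv4* fell with NRRA by -2.68, -2.24 and -2.23, and the inhibitors *Il17rd*, *Spred3* and *Spred1* by -1.71, -1.63 and -1.31. *Spry1* stood apart, with 22.4 CPM with Veh, 12.5 with RA, 24.5 under NR and 31.0 under NRRA, and rose from RA to NRRA by 1.32 ± 0.08 (edgeR adjusted p = 1.73e-13). *Spry3* is also in the count of 8, at a low level of 2.06 ± 0.25 CPM (SD, n = 2) with Veh and 0.89 ± 0.31 under NRRA. *Spred2* was called in at least 1 comparison and completes the list of called genes.

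Among 10 MAP kinase phosphatases other than *Dusp1*, 5 fell with NRRA (6.02% of all genes), 4 with NR (2.96%) and 0 with RA (2.75%), and 1 rose with RA (4.74%). *Dusp6*, which removes phosphate from ERK in the cytoplasm, was at 274 CPM with Veh, 139 with RA, 79.4 under NR and 15.3 under NRRA, and its log2 change of -4.16 ± 0.06 with NRRA (edgeR adjusted p = 7.59e-27) was close to that of *Egr3*. The nuclear phosphatases *Dusp4* and *Dusp5* fell by -2.74 and -1.88, and *Dusp9* and *Dusp7*, which act on ERK, by -1.27 and -1.13. *Dusp10*, which acts on JNK and p38, fell with NR (-1.27). *Dusp14* rose by 1.20 from Veh to RA and by 1.24 from NR to NRRA. *Dusp2* rose from NR to NRRA by 1.27, at a low level of 2.03 ± 1.10 CPM (SD, n = 2) under NR and 5.10 ± 0.09 under NRRA.

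**Figure D5:**
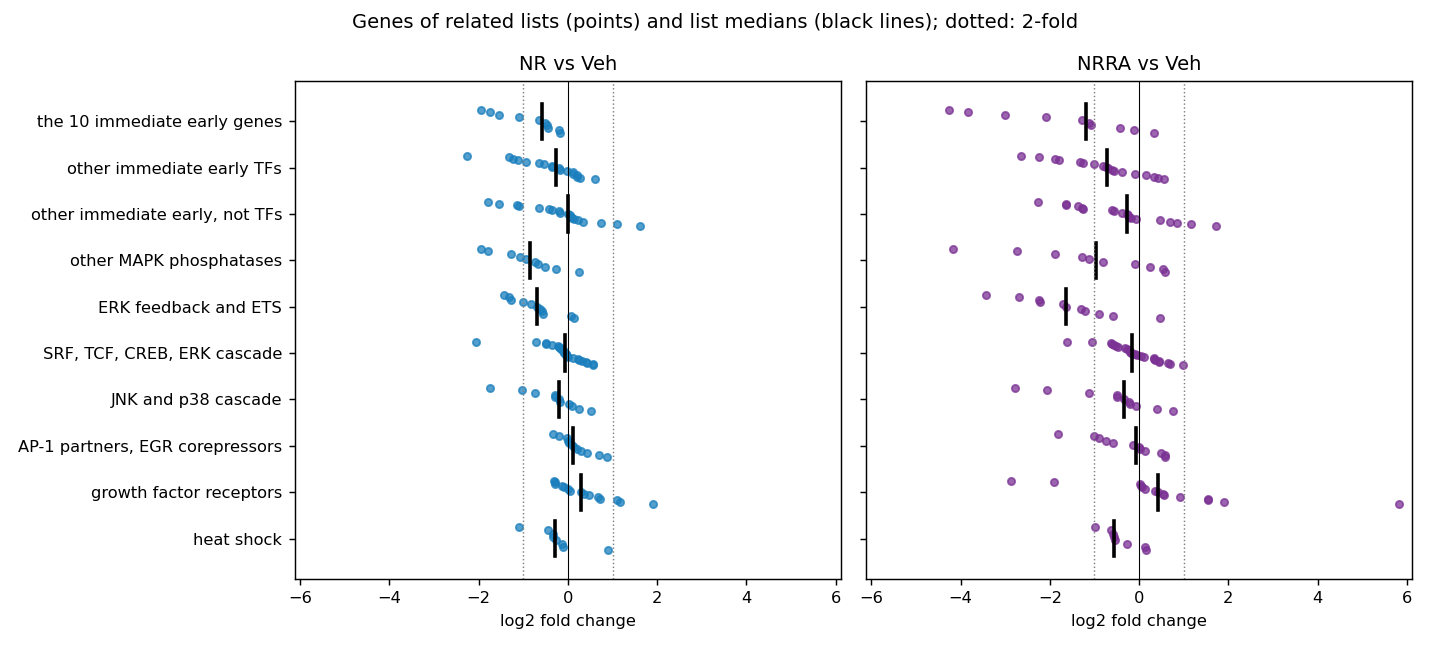
Log2 fold changes of all tested genes of each list for NR against Veh (left) and NRRA against Veh (right), with 1 point per gene, black lines at the list medians and dotted lines at 2-fold. In NRRA the medians lie at -1.63 for ERK feedback and ETS genes, -1.20 for the 10 immediate early genes and -0.16 for the SRF, TCF, CREB and ERK cascade components.

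Next came the components that carry the signal. Of 26 genes of the RAS to ERK cascade with SRF, TCF and CREB, 2 fell with NRRA (6.02% of all genes), 1 with NR (2.96%) and 0 with RA (2.75%), and 0 rose, with a median of -0.16 in NRRA. These counts are near the shares of all genes. The called genes were *Rps6ka2*, a kinase that ERK activates, at -1.60, and *Elk3*, a ternary complex factor, at -1.06. Of 11 genes of the JNK and p38 cascades, 3 fell with NRRA (6.02%), 2 with NR (2.96%) and 1 with RA (2.75%): *Mapk11*, a p38 kinase, fell in all 3 and reached -2.78 in NRRA, and the p38 activators *Map2k6* and *Map2k3* reached -2.07 and -1.12. Of 12 AP-1 partners and EGR corepressors, 2 fell with NRRA (6.02%), 0 with NR (2.96%) and 1 with RA (2.75%). One was *Nab2*, a corepressor that EGR proteins induce, at 152 CPM with Veh, 82.2 with RA, 132 under NR and 43.2 under NRRA (-1.81 ± 0.05, edgeR adjusted p = 3.15e-20). The other was *Batf* at -1.01, near 2-fold, with 5.46 CPM with Veh and 2.70 under NRRA. *Batf3* fell from NR to NRRA (-1.31), from 3.67 to 1.48 CPM. The difference between these lists and the target lists was not tested.

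The receptors that start the cascade did not move as one. Of 15 growth factor receptors, 4 rose and 2 fell with NRRA (9.91% and 6.02% of all genes), 3 rose and 0 fell with NR (5.33% and 2.96%), and 3 rose and 1 fell with RA (4.74% and 2.75%). Those that fell with NRRA were both parts of the GDNF receptor, *Ret* at -2.87 ± 0.06 (edgeR adjusted p = 6.03e-24) and *Gfra1* at -1.90 ± 0.06 (edgeR adjusted p = 7.25e-20). *Ret* was at 233 CPM with Veh, 52.4 with RA, 189 under NR and 31.8 under NRRA, and was thus, like *Egr2*, lower in RA than in NR. *Gfra1* was at 101, 75.7, 104 and 27.2. *Kit*, the receptor of differentiating spermatogonia, rose with NRRA by 5.82, and *Fgfr4*, *Fgfr3* and *Egfr* rose by 1.90, 1.55 and 1.53. The level of *Fgfr4* was low, at 0.53 CPM with Veh and 2.00 under NRRA. *Fgfr2* was the remaining called receptor besides *Pdgfra*, which rose with NR by 1.10, and *Pdgfrb*, which rose from RA to NRRA by 1.38. *Gfra1*, *Pdgfra* and *Pdgfrb* are also on the marker lists of germ cells and fibroblasts.

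Other values moved with the conditions and stand beside these results. With NR, 5 of the 14 fibroblast markers rose (5.33% of all genes) and 0 fell (2.96%), and with NRRA 3 rose (9.91%) and 2 fell (6.02%). *Acta2*, a contractile gene of fibroblasts and myoid cells, was at 80.1 CPM with Veh, 55.0 with RA, 509 under NR and 878 under NRRA. Of the germ cell markers, 0 rose and 5 fell with RA (4.74% and 2.75% of all genes) and with NRRA (9.91% and 6.02%). With NR 0 rose (5.33%) and 0 fell (2.96%). Single germ cell markers differed in direction: *Dazl* was at 311 CPM with Veh and 466 with NRRA, *Ddx4* at 138 and 183, and *Zbtb16* at 164 and 35.4. The list mixes germ cell states: the study uses *Ddx4* as a germ cell marker, and *Zbtb16* and *Gfra1* as markers of undifferentiated spermatogonia. The count of falls is thus not a measure of the amount of germ cells. The summed levels over all libraries were 12.2 to 45.4 CPM for 6 Sertoli cell markers, 5.77 to 15.0 for 5 Leydig cell markers, 106 to 149 for 5 leukocyte markers and 6.29 to 14.3 for 3 endothelial markers. For 3 peritubular myoid markers the sum was 58.7 to 888 CPM, most of it *Acta2*. The part of feeder cells, germ cell state and cell handling in the levels of the 10 genes was not tested. Of 8 heat shock genes, which respond to handling, 0 rose (5.33% of all genes) and 1 fell (2.96%) with NR (*Hspb1*, -1.09). With RA and NRRA, 0 rose (4.74% and 9.91%) and 0 fell (2.75% and 6.02%). Without the 2-fold threshold, 5 were lower with RA (23.4% of all genes), 6 with NR (22.2%) and 6 with NRRA (28.7%), where their median was -0.56.

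The genes most alike *Egr1* over the 8 libraries, out of 14794 that averaged 50 counts or more, were *Gm49759* (Pearson r = 0.998), *Col6a6* (0.994) and *Clcf1* (0.994). Those most alike *Fos* were *Pfkfb1* (0.992), *Rnpep* (0.966) and *Gm9870* (0.946), and those most alike *Dusp1* were *Apmap* (0.995) and *Rhox13* (0.994). With 4 conditions of 2 libraries, such values mean that the order and spacing of the conditions were alike. *Clcf1* was at 24.8 CPM with Veh, 17.7 with RA, 16.3 under NR and 5.92 under NRRA, and *Rhox13* at 14.1, 21.2, 8.73 and 19.6.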

How the data were processed

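RNA-seq counts of 8 libraries in 4 conditions, with 2 libraries each, were analysed. The authors deposited counts per gene as whole numbers without normalization, and the submitters' processing notes name bcl2fastq, STAR 2.6.1c, featureCounts 1.6.4 and the build mm10. Conditions and replicate numbers came from the sample labels, and 0 columns lacked a sample. The study's methods and the labels name different library kits.

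Of 55421 identifiers, 55240 were found in GENCODE M21 (GRCm38), which gave coordinates and exon lengths. Counts were filtered with filterByExpr, scaled with TMM and fitted in edgeR 4.0.16 (R 4.3.3) with 1 coefficient per condition over all 8 libraries, and 6 comparisons were tested with its quasi-likelihood F test, with p-values adjusted by Benjamini-Hochberg. A gene was called at an adjusted p under 0.05 and at least 2-fold (no fold for the interaction). The standard error is the log2 change divided by the square root of F. The model was tested on simulated data. DESeq2 1.42.0, other scalings, no filter, other fold thresholds, a replicate block and each library left out were tried. Figures used Python 3.11.15 and matplotlib 3.10.9.

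The 10 genes and the lists were chosen with earlier results of these data known. From each list, called genes are named, at most 8 by size of change. For *Fos*, *Egr1* and *Dusp1* the 3 genes with the highest correlation are named, except 1 that is not reported here. *Spred2*, *Spry3*, *Fgfr2* and the marker genes are named beyond that rule, after their values were seen. *Ccn2* was listed under an older symbol, as were 3 other genes, and matched through RefSeq synonyms.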

Additional observations from a re-analysis of the deposited data

Results flagged for a closer look

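The response to RA differed between the media in 7 of the 10 genes, by a test of the difference itself (the log2 change from NR to NRRA minus that from Veh to RA, edgeR's quasi-likelihood test, adjusted p under 0.05). The difference was -2.11 for *Egr3*, -1.29 for *Egr2*, -1.11 for *Egr1*, -0.96 for *Ier3* and -0.79 for *Junb*. It was 0.34 for *Jun* and 0.40 for *Dusp1*, of which that of *Dusp1* was not past the threshold in DESeq2 (adjusted p = 0.0563). With 2 libraries in each condition, no library was tested for standing apart from its group. In Veh, replicate 1 lay above replicate 2 in every gene of the set but *Dusp1* (log2 CPM difference -0.04). The difference was largest in *Fosb* (0.37) and *Fos* (0.36). All comparisons with Veh and the interaction use these libraries.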

How the results depend on the processing

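Calls of the 10 genes were recomputed with DESeq2, with DESeq2 size factors or upper quartile scaling in edgeR, without the filter, with other fold thresholds and without each library. Without the fold threshold, 3 genes were higher and 3 lower with RA, 8 were lower with NR, 1 was higher with NRRA, and 2 were higher from NR to NRRA. With a threshold of 2-fold, 3 interactions passed in place of 7. With each library left out in turn, 1 gene fell with RA, 3 to 4 with NR, 6 to 7 with NRRA, 7 to 8 from RA to NRRA and 4 from NR to NRRA, 6 to 8 had an interaction, and 0 rose. Changes near 0 turned sign with a library left out: *Ier2* with RA ranged from -0.044 to 0.16, *Fos* with NR from -0.33 to 0.032, *Fosb* with NR from -0.35 to 0.019, *Fos* with NRRA from -0.28 to 0.089, *Fos* from NR to NRRA from -0.038 to 0.17, and *Fosb* from NR to NRRA from -0.57 to 0.033. Over all genes, DESeq2 called 791 positive and 925 negative interactions and edgeR 1304 and 1348. The cause was not tested.

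Deviations of same-numbered libraries correlated between -0.0578 and 0.0757, so no shared deviation was seen. That check cannot show that libraries with the same replicate number had no culture or run in common. With the number as a replicate block, 1 of the 10 genes fell with RA, 4 with NR, 7 with NRRA, 7 from RA to NRRA and 4 from NR to NRRA, and 7 had an interaction. Depth limits *Fosb*, *Egr3* in NRRA and *Egr2* in NRRA, which rest on 37 to 112 reads a library, and 2 libraries a condition leave 4 residual degrees of freedom.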
